A study of Bos taurus with 3 samples.

Results

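This report describes 10 genes in rumen epithelial cells of lactating dairy cows: PHGDH, PSAT1 and PSPH, the enzymes of the serine synthesis pathway, SHMT2 and MTHFD2, enzymes of mitochondrial one-carbon metabolism, ASNS, PCK2, the transcription factor ATF4, and the stress response genes TRIB3 and DDIT3. The genes were named in advance, 10 of the 19533 genes in the count table, and the question was whether PCK2 and PSPH moved with the other ATF4 targets across cells grouped by their IGFBP5, IGFBP6, GJA1 and DLK2 counts. They were proposed with earlier results of these data in view, so their levels across these cells are given as a description with no test. The samples were 3 adult Holstein cows without any treatment, with 1 library per cow, and tissue came from the ventral sac of the rumen. Cells were released with EDTA, trypsin and a mix of collagenases, dispase, hyaluronidase and DNase, and dead cells were removed. The authors kept epithelial cells only, so the other cells of the rumen wall are not part of these values.

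Serine is made from the glycolytic intermediate 3-phosphoglycerate by PHGDH, PSAT1 and PSPH acting in turn, and SHMT2 and MTHFD2 pass its side-chain carbon into mitochondrial folate. ATF4 is translated when eIF2 is phosphorylated during amino acid shortage, endoplasmic reticulum stress or mitochondrial stress, and it activates the serine enzymes, ASNS, PCK2, TRIB3 and DDIT3 in many cell types. PCK2, the mitochondrial phosphoenolpyruvate carboxykinase, is also a step between the tricarboxylic acid cycle and gluconeogenesis, and the rumen wall is the site where volatile fatty acids from fibre are absorbed.

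Unique molecular identifiers (UMIs), each standing for 1 captured transcript, were counted in 3369, 7401 and 9958 cells of cows 1, 2 and 3, for 38912809, 94856658 and 104189434 UMIs. The mitochondrial share was higher in cow 1, with a median of 17.2% of a cell's UMIs against 10.8% and 12.4% in cows 2 and 3. 35 barcodes were found in more than 1 cow. The epithelial keratin KRT5 was highly expressed in every set of cells described here (set means from 42.1 to 60.3 UMIs per 10000). Markers of other cell types were sparse: over all 20728 cells the fibroblast gene COL1A1 had 5 UMIs, the endothelial PECAM1 4 and VWF 563, the immune PTPRC 38, CD3E 211 and LYZ 126, and the smooth muscle MYH11 11, ACTA2 107 and DES 102, with VWF the highest of the 21 markers.

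A marker was called positive in a cell at 2 or more UMIs, and each cell fell into 1 of 7 sets. IGFBP5+ GJA1+ cells numbered 922, GJA1+ IGFBP5- cells 380 and IGFBP5+ GJA1- cells 6727. Among cells negative for both, 2311 were IGFBP6+, 2095 were DLK2+, 404 carried both of these markers and 7889 were unmarked. GJA1 encodes the gap junction protein connexin 43, which the study used for its channel-gap-like spinous cells, and the study used DLK2 for granule cells. The sets differed in depth, with a median UMI count per cell, averaged over cows, of 17329 in IGFBP5+ GJA1+ cells, 14872 in GJA1+ IGFBP5- cells and 8399 in DLK2+ cells. A cell with few UMIs reaches the threshold less easily, so the unmarked set, with 8580, also holds shallow cells. Levels below are UMIs per 10000 UMIs of a set, with mitochondrial UMIs in the total unless stated, listed for cows 1, 2 and 3. Levels of different genes are not compared because only transcript ends were counted. A lower level can mean fewer cells that express a gene or fewer transcripts per cell, and these were not told apart here.

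PCK2, which the study had picked as uniquely high in its IGFBP5+ channel-gap-like spinous cells, was highly expressed in both GJA1+ sets. Its level in IGFBP5+ GJA1+ cells was 0.626, 0.939 and 0.477 (0.681 ± 0.236, SD, n = 3 cows), and in GJA1+ IGFBP5- cells it was 0.514, 0.803 and 0.256. In IGFBP5+ GJA1- cells it was 0.203, 0.203 and 0.175, and in unmarked cells 0.160, 0.138 and 0.180. IGFBP6+ cells had 0.128, 0.151 and 0.172, DLK2+ cells 0.113, 0.084 and 0.175. Every GJA1+ value, of either set and any cow, lay above every value of the 5 other sets, and the highest set mean was 5.54 times the lowest. The 5 sets without GJA1 differed by little: neighbours in their order kept that order in only 1 or 2 of 3 cows. PCK2 had 5094 UMIs in all cells. PCK1, the cytosolic form of the enzyme, was sparse, with 64 UMIs in all cells. The median mitochondrial share of UMIs, averaged over cows, was 18.8% in IGFBP5+ GJA1+ and 15.7% in GJA1+ IGFBP5- cells. It was from 9.49% to 14.4% in the 5 other sets, and its part in the PCK2 levels across sets was not tested.

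**Figure D1:**
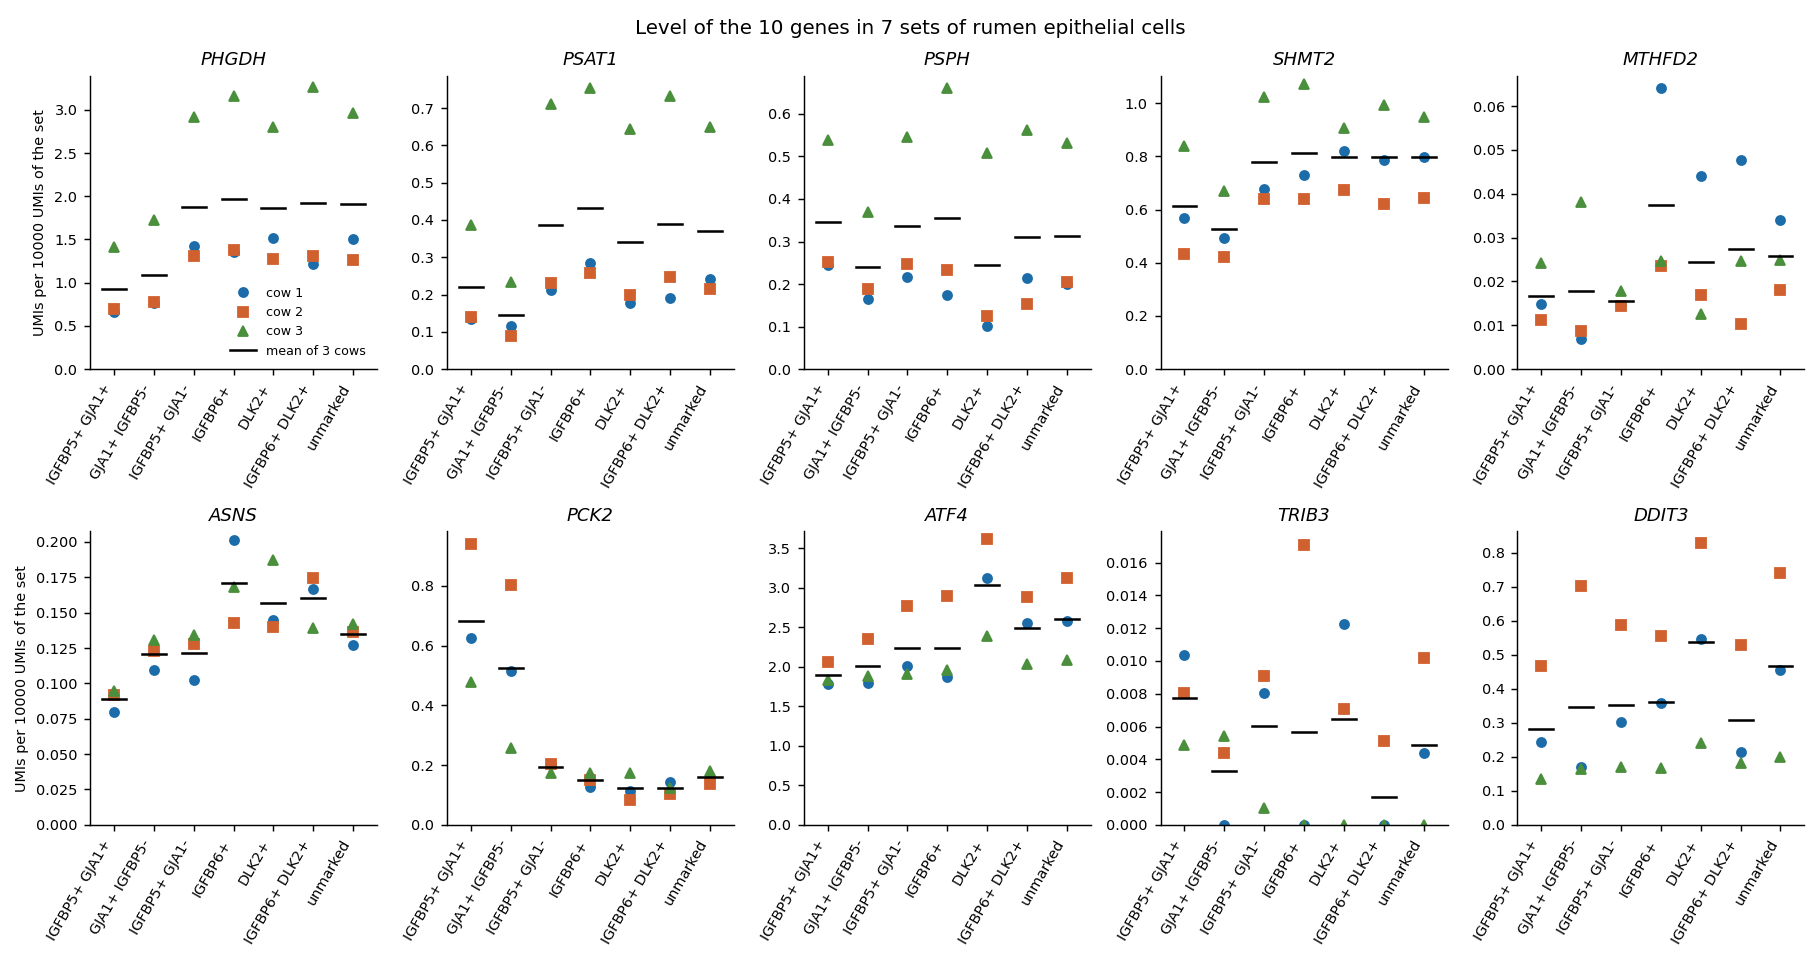
Level of each of the 10 genes (UMIs per 10000 UMIs of the set, vertical axis starting at 0) in the 7 cell sets, with a point per cow and a line at the mean of 3 cows. PCK2 is highest in the 2 GJA1+ sets, PHGDH, PSAT1 and SHMT2 are lowest there, and cow 3 lies above the other cows for PHGDH, PSAT1 and PSPH in every set.

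PHGDH, PSAT1 and SHMT2 were lower in both GJA1+ sets than in each of the 5 other sets, in every cow. PHGDH, the first and committed enzyme of serine synthesis, was at 0.656, 0.701 and 1.42 in IGFBP5+ GJA1+ cells and at 0.760, 0.777 and 1.72 in GJA1+ IGFBP5- cells. In the 5 other sets it lay between 1.21 and 1.51 in cow 1, between 1.26 and 1.38 in cow 2 and between 2.80 and 3.26 in cow 3. Within each cow the GJA1+ sets therefore did not overlap with the others, while the 5 others did not keep one order across cows. PSAT1, the aminotransferase of the next step, was at 0.116, 0.088 and 0.234 in GJA1+ IGFBP5- cells and at 0.284, 0.258 and 0.753 in IGFBP6+ cells, 2.96-fold between the set means. SHMT2, which makes glycine from serine in mitochondria, was at 0.493, 0.421 and 0.669 in GJA1+ IGFBP5- cells and at 0.732, 0.639 and 1.07 in IGFBP6+ cells, 1.54-fold between the means.

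PSPH, the phosphatase of the last step, followed neither pattern. It was at 0.246, 0.251 and 0.538 in IGFBP5+ GJA1+ cells, close to 0.216, 0.248 and 0.546 in IGFBP5+ GJA1- cells and to 0.174, 0.232 and 0.661 in IGFBP6+ cells. It was lower in GJA1+ IGFBP5- cells (0.164, 0.189 and 0.370) and in DLK2+ cells (0.101, 0.125 and 0.507). The 3 sets with the highest means did not differ beyond their spread: IGFBP6+ lay above IGFBP5+ GJA1+ in 1 of 3 cows. The range of the set means was 1.48-fold, the smallest of the 10 genes.

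ASNS, which makes asparagine, was lowest in IGFBP5+ GJA1+ cells at 0.080, 0.092 and 0.094 and had its highest mean in IGFBP6+ cells, at 0.201, 0.143 and 0.168. DLK2+ cells lay above these in cow 3 (0.187) and cells with both markers in cow 2 (0.175). Its values in GJA1+ IGFBP5- cells (0.110, 0.123 and 0.130) and in IGFBP5+ GJA1- cells (0.102, 0.128 and 0.135) overlapped. MTHFD2 was sparse, with 479 UMIs in all cells and from 10 to 175 in a set, and no order of its levels can be read.

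ATF4 itself was highest in DLK2+ cells, at 3.12, 3.62 and 2.38. With all UMIs in the total it was lowest in IGFBP5+ GJA1+ cells, at 1.78, 2.06 and 1.83, followed by GJA1+ IGFBP5- cells at 1.79, 2.35 and 1.88. With mitochondrial UMIs left out of the total, these levels were 2.37, 2.44 and 2.19 and 2.28, 2.77 and 2.18. Neither set was then lowest in every cow. DDIT3, which encodes the stress factor CHOP, was also highest in DLK2+ cells, at 0.547, 0.827 and 0.241, and was at 0.456, 0.741 and 0.200 in unmarked cells. It had its lowest mean in IGFBP5+ GJA1+ cells, at 0.244, 0.468 and 0.136, but the sets below unmarked cells overlapped. TRIB3, an inhibitor of ATF4 and DDIT3, had 123 UMIs in all cells. It had 2 UMIs in GJA1+ IGFBP5- cells and 14 in IGFBP5+ GJA1+ cells, and it was left out of the fits across sets, which 9 of the 10 genes entered. The summed level of immediate-early genes such as FOS and JUN, which respond within minutes to stimulation or tissue handling, moved with ATF4 and DDIT3: it averaged 94.5 in DLK2+ cells, 76.6 in unmarked cells and 33.9 in IGFBP5+ GJA1+ cells. Its part in these 2 genes across the sets was not tested.

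Taken as ratios within each cow, GJA1+ IGFBP5- over unmarked cells gave log2 ratios of 1.68, 2.54 and 0.51 for PCK2 and of -0.28, -0.13 and -0.53 for PSPH. PHGDH gave -0.98, -0.70 and -0.78, PSAT1 -1.05, -1.30 and -1.48, and SHMT2 -0.69, -0.61 and -0.50. ATF4 gave -0.53, -0.41 and -0.15, ASNS -0.21, -0.15 and -0.12, and DDIT3 -1.41, -0.08 and -0.30. PCK2 was thus the sole gene of these 8 above 0 in this contrast, in 3 of 3 cows, while the 7 others were below 0 in 3 of 3. The fitted log2 fold change of PSPH turned to 0.0628 with IGFBP5 positive at 5 UMIs, and that of ASNS to 0.0818 with cells of 1 marker UMI left out and to 0.0107 without cow 2. With markers positive at 1 UMI the fitted values were smaller, -0.41 in place of -0.71 for PHGDH, -0.70 in place of -1.24 for PSAT1 and -0.26 in place of -0.50 for SHMT2. That of DDIT3, -0.32, was -0.08 without cow 1 and -0.71 without cow 2, and that of ATF4, -0.26, was -0.17 without cow 2 and -0.42 without cow 3. Summed immune markers were higher in GJA1+ IGFBP5- cells, at 0.0395 to 0.103 over the cows against 0.0173 to 0.0253 in unmarked cells, as were endothelial markers (0.0381 to 0.0754 against 0.0187 to 0.0411), and their part in this contrast was not tested. This contrast shares its cells with others described below. Many genes differed between these sets: 20.4% of the 10027 genes tested were higher and 18.8% lower in GJA1+ IGFBP5- cells, 39.2% in all.

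Within GJA1+ cells the IGFBP5+ cells had more PSPH, by log2 ratios of 0.58, 0.41 and 0.54 (mean 0.51 ± 0.09, SD), and more PCK2, by 0.29, 0.22 and 0.90. PSAT1 was higher too, by 0.19, 0.67 and 0.73, and SHMT2 by 0.20, 0.04 and 0.33. ASNS was lower, at -0.46, -0.42 and -0.47, and PHGDH was lower at -0.21, -0.15 and -0.28. In GJA1+ IGFBP5- cells these ratios rest on few UMIs, with 16, 28 and 24 for ASNS. PSPH had 24, 43 and 68 there and PSAT1 17, 20 and 43, so close values between cows are not evidence of a steady effect. When the sets were made at equal depth, with markers called at 1 UMI in cells thinned to 5000 UMIs, the fitted log2 fold change went from 0.67 to 0.31 for PSAT1 and from -0.37 to -0.19 for ASNS. With markers at 1 UMI and no thinning these were 0.37 and -0.15, so threshold and depth cannot be told apart here. With IGFBP5 positive at 5 UMIs that of PSPH went from 0.61 to 0.28. ATF4 (mean -0.08 ± 0.10) differed by less than its spread between cows. In this contrast PCK2 and PSPH shared their direction with PSAT1 and SHMT2 but not with PHGDH or ASNS. The fitted value of PHGDH, -0.15, was -0.066 without cow 3, and that of SHMT2, 0.27, was 0.094 with markers at 1 UMI. Of all genes 1.38% were called higher and 1.68% lower, 3.05% in either direction.

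IGFBP5+ cells were compared with unmarked cells outside the GJA1+ sets. By log2 ratios within each cow, PSPH was at 0.12, 0.27 and 0.04 and PCK2 at 0.34, 0.56 and -0.04. PHGDH, PSAT1 and SHMT2 had no common sign over the cows, and their means were between -0.05 and 0.02. ATF4 was at -0.36, -0.17 and -0.13 and DDIT3 at -0.59, -0.34 and -0.23. With sets made at equal depth, the fitted log2 fold change fell toward 0 for each of these 4 genes: from 0.22 to 0.037 for PSPH, from 0.35 to 0.14 for PCK2, from -0.12 to -0.034 for ATF4 and from -0.28 to -0.061 for DDIT3. That of PCK2 was 0.21 without cow 2 and 0.59 without cow 3. The fitted values differ from the within-cow ratios, as for ATF4, and that of PHGDH was 0.083. The reason for these gaps was not tested. Of all genes 4.35% were called higher and 3.5% lower here (7.85% in all), with 294 higher and 118 lower calls under DESeq2 in place of 436 and 351.

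In IGFBP6+ over DLK2+ cells PSPH was at 0.79, 0.90 and 0.38 (mean 0.69 ± 0.27). PSAT1 was at 0.68, 0.38 and 0.22, while DDIT3 was at -0.62, -0.58 and -0.52 and ATF4 at -0.74, -0.32 and -0.28. PCK2 had no common direction, at 0.18, 0.84 and -0.02. Its fitted log2 fold change of 0.78 exceeds the within-cow mean of 0.33, and the reason for this gap was not tested. It was 0.46 with DESeq2 and 0.40 without cow 2. With sets made at equal depth the fitted value of DDIT3 went from -0.53 to -0.28, and it was -0.34 with markers at 1 UMI and no thinning. That of ATF4 went from -0.37 to -0.24 without cow 1. Of all genes 10.4% were called higher and 8.82% lower, 19.2% in all. The cell cycle genes also moved with these sets, at a summed level of 11.5 ± 6.71 in IGFBP6+ and 5.93 ± 4.55 in DLK2+ cells, and their part in the difference of PSPH between the sets was not tested.

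**Figure D2:**
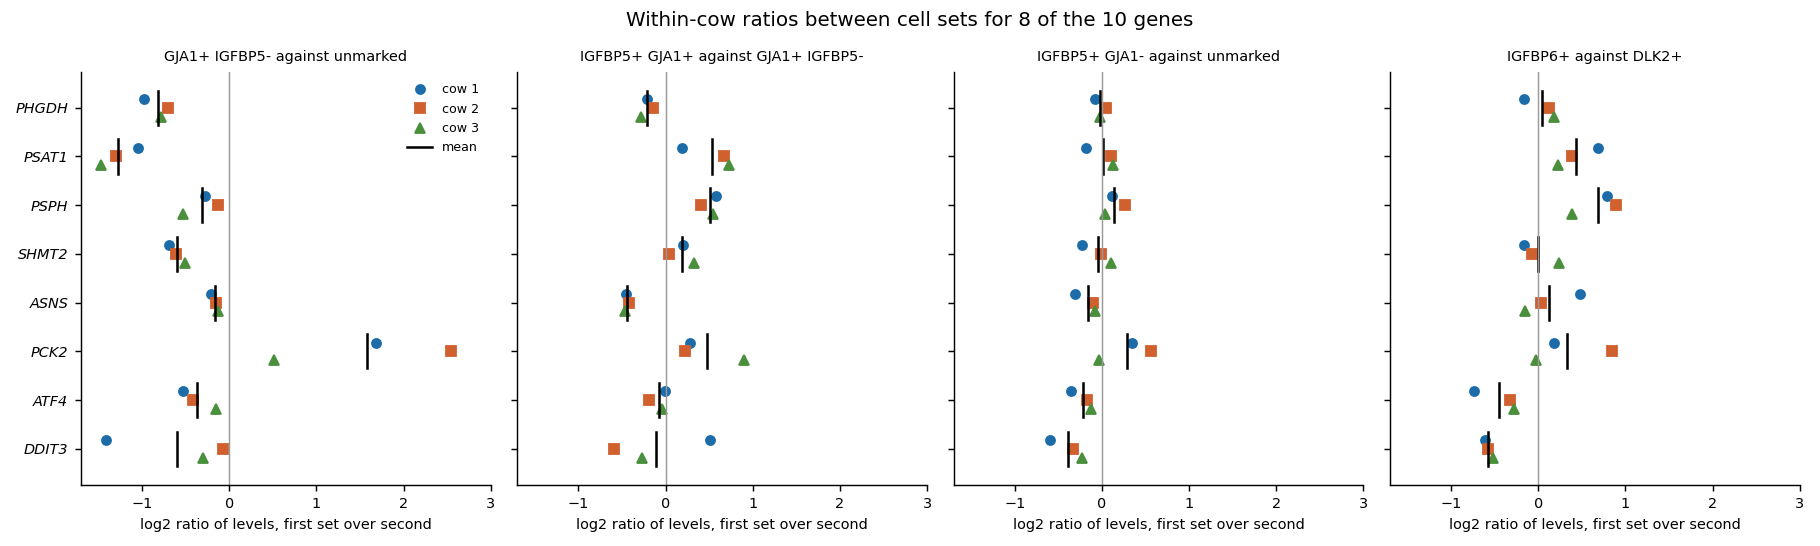
Log2 ratio of a gene's level in the first set over the second within each cow (horizontal axis), for 8 genes in the 4 contrasts between sets, with a point per cow and a line at the mean. In GJA1+ IGFBP5- against unmarked cells PCK2 lies at 1.68, 2.54 and 0.51 and the other 7 genes lie below 0.

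Over the sums of 7 sets and 3 cows, with each cow's mean taken out, PCK2 correlated negatively with most of these genes. The points share libraries and differ in depth, so r is given as a description. Pearson's r of log2(CPM + 1) with PCK2 over these 21 sums was -0.88 for PHGDH, -0.86 for SHMT2, -0.78 for ATF4, -0.74 for ASNS, -0.72 for PSAT1 and -0.51 for DDIT3. The r of PSAT1 was -0.41 with markers positive at 1 UMI and -0.53 at 3 UMIs, and that of DDIT3 was -0.094 at 3 UMIs. Among 10027 genes ordered from most to least like PCK2, PHGDH stood at rank 9868, SHMT2 at 9790 and ATF4 at 9228. ASNS stood at 8922, PSAT1 at 8822 and DDIT3 at 7144, so many other genes were less like PCK2 than these 3. PCK2 differed by little among the sets without GJA1. These r therefore mainly repeat the contrast of the GJA1+ sets with the others, and are not specific to ATF4 targets. PSPH was the most like PCK2 of the other 9, at r = 0.36 and rank 2332, with r = 0.44 and 0.53 within cows 1 and 2 and -0.29 within cow 3. It was 0.57 with markers positive at 1 UMI and 0.23 without cow 2. The likeness of PCK2 and PSPH therefore did not hold in every cow.

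The r of PSPH with the other genes lay between -0.50 and 0.36. It was 0.23 with PSAT1, -0.04 with SHMT2, -0.10 with PHGDH, -0.31 with ASNS, -0.45 with DDIT3 and -0.50 with ATF4. Among 10027 genes ordered from most to least like PSPH, PCK2 stood at rank 557 and PSAT1 at 1332. DDIT3 stood at rank 9481 and ATF4 at 9702, and the others between 4377 and 8336. Within cows 1, 2 and 3 r with ATF4 was -0.56, -0.63 and 0.09. The cows differed: within cow 3 alone r was 0.93 with SHMT2, 0.84 with PSAT1 and 0.56 with PHGDH, while within cows 1 and 2 these 6 values lay between -0.37 and 0.02.

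**Figure D3:**
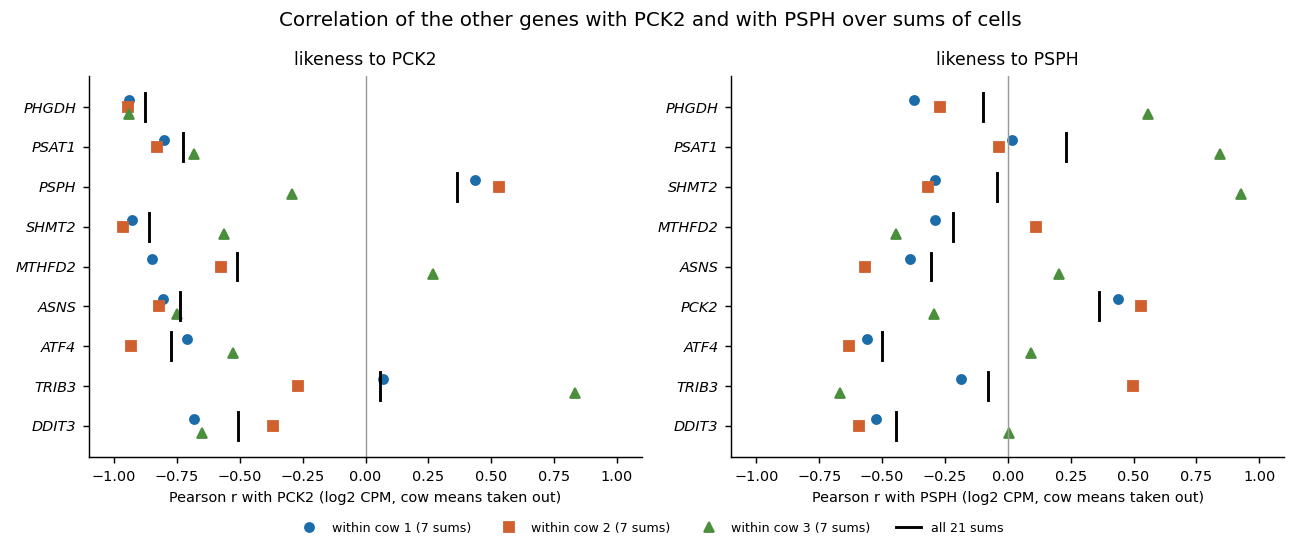
Pearson's r of each other gene with PCK2 (left) and with PSPH (right) over sums of UMI counts per cow and set (log2 CPM, cow means taken out), with a line for all 21 sums and a point for the 7 sums of each cow. PHGDH is near -0.94 with PCK2 in each cow, and PSPH is positive with PCK2 in cows 1 and 2 and negative in cow 3.

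The genes most like PCK2 over all genes were ENSBTAG00000053057 (r = 0.96), SMIM20 (0.95), an assembly factor of cytochrome c oxidase, GDF1 (0.95), whose transcript is shared with the ceramide synthase gene CERS1, HSPH1 (0.95), a cochaperone of HSP70, and HSPB8 (0.95), a small heat shock protein. SMIM20 was at 1.82, 2.58 and 2.61 in IGFBP5+ GJA1+ and at 1.11, 1.59 and 1.83 in unmarked cells. The genes most like PSPH were the tetraspanin TSPAN7 (0.83), UHRF1 (0.78), which maintains DNA methylation at replication, the kinase scaffold gene MAPK8IP1 (0.77), the replication gene GINS2 (0.75) and the DNA repair gene FANCD2 (0.75). UHRF1 and GINS2 are part of the cell cycle list used below. TSPAN7 was at 0.108, 0.123 and 0.287 in DLK2+ cells and at 0.303, 0.240 and 0.431 in IGFBP5+ GJA1+ cells. Within single cows the lowest r with PCK2 was 0.61 (HSPB8, cow 3) and with PSPH 0.52 (MAPK8IP1, cow 2). ENSBTAG00000053057 was sparse outside the GJA1+ sets, at set means of 0.0012 to 0.0095. FANCD2 was sparse in all sets, at set means of 0.0074 to 0.0259.

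The same cells were also ordered by their GJA1 count in place of a threshold. This uses the marker and cells of the sets above, so it is no independent support. A deeper cell reaches a higher GJA1 count more easily, and the part of depth was not tested. PCK2 went from 0.163, 0.147 and 0.171 in the 18629 cells with no GJA1 UMI to 0.237, 0.345 and 0.269 at 1 UMI, 0.420, 0.615 and 0.391 at 2 to 4 UMIs, and 0.679, 1.08 and 0.426 at 5 or more (757 cells). PHGDH went down over the same cells from 1.49, 1.29 and 3.01 to 0.523, 0.593 and 1.26, and PSAT1 from 0.223, 0.221 and 0.703 to 0.107, 0.104 and 0.274. PSPH was at 0.191, 0.208 and 0.565 with no GJA1 UMI and at 0.242, 0.230 and 0.390 with 5 or more, which is higher in cows 1 and 2 and lower in cow 3. GJA1-negative cells with 5 or more IGFBP5 UMIs (1560 cells) had 0.232, 0.281 and 0.178 for PCK2, against 0.156, 0.113 and 0.178 with no IGFBP5 UMI.

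**Figure D4:**
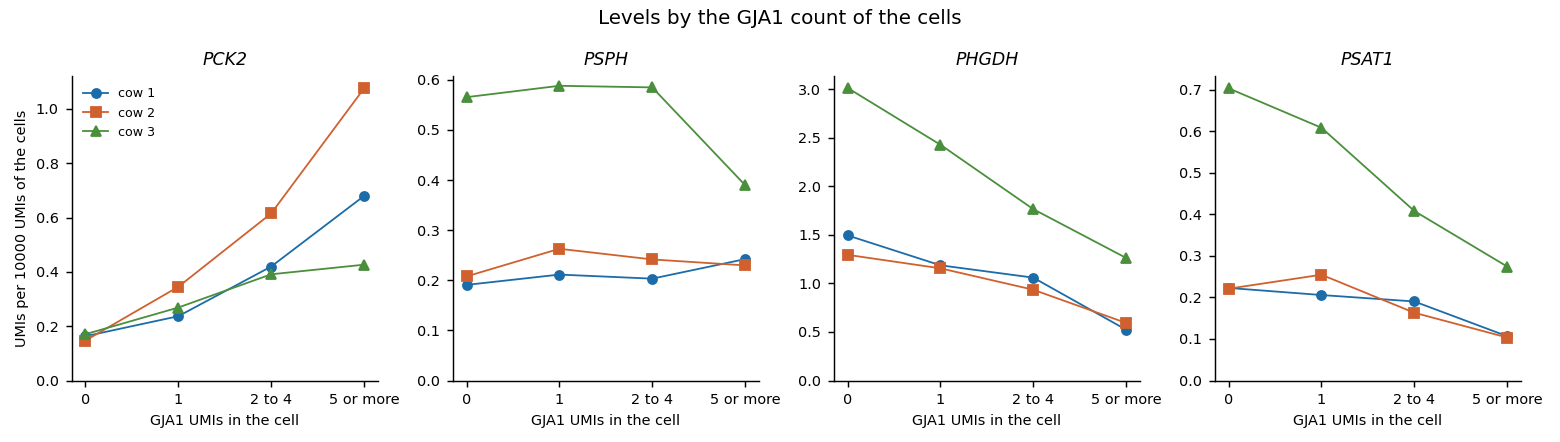
Level of PCK2, PSPH, PHGDH and PSAT1 (UMIs per 10000, vertical axis starting at 0) in cells grouped by their number of GJA1 UMIs, with a line per cow. PCK2 is higher and PHGDH and PSAT1 are lower in each cow at 5 or more GJA1 UMIs than at 0, and PSPH has no common direction.

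The other genes of these pathways were taken from lists and tested with edgeR over all genes (adjusted p below 0.05 and a log2 fold change past 0.25), with cow as a block. In GJA1+ IGFBP5- against unmarked cells, where 20.4% of all genes were higher, 8 of 12 aminoacyl-tRNA synthetase genes known as ATF4 targets were called and each of these was higher, led by AARS1 (log2 fold change 0.87), YARS1 (0.78) and WARS1 (0.77). Of 23 other ATF4 targets tested, 5 were higher and 8 lower. The stress gene NUPR1 (1.57) and the amino acid transporters SLC7A5 (0.72) and SLC1A5 (0.70) were higher, and JDP2 (-2.57), NIBAN1 (-2.21) and ATF3 (-1.22), which are induced by stress, were lower. Among other amino acid transporters, named after their values were seen, SLC6A9 (0.47) was higher and SLC1A4 (-0.49) and SLC38A2 (-0.42) were lower. The median of the 23 other ATF4 targets, -0.10, was near that of all genes, -0.04. Of 16 genes for eIF2 kinases and regulators 1 was higher, EIF2B5 (0.58), and 2 were lower, EIF2S3 (-0.66) and NCK1 (-0.43).

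Of 18 genes for phosphoenolpyruvate and propionate metabolism tested in GJA1+ IGFBP5- against unmarked cells 13 were higher, led by the gluconeogenic FBP1 (3.25), MCEE of the propionate route (1.43) and MDH1 (1.36), and LDHB was lower (-0.26), by less than the required fold change in DESeq2. The median of the list was 0.61. In IGFBP5+ GJA1+ against GJA1+ IGFBP5- cells, where PCK2 was also higher, 0 of the 18 were called higher and 2 lower. Of all genes 1.38% were higher and 1.68% lower in that contrast, and DESeq2 called 1 of the 18 lower. Back in GJA1+ IGFBP5- against unmarked cells, of 18 other serine and folate genes 4 were higher, led by GGH (1.73), the cytosolic folate enzyme MTHFD1 (1.17) and DLD (0.59), and 2 were lower, CBS (-1.01), which commits serine to cysteine synthesis, and TYMS (-0.78). Of 10 mitochondrial stress genes 6 were called, each of them higher, led by HSPE1 (0.85), CLPP (0.62) and HSPD1 (0.60). Of 15 genes of the endoplasmic reticulum stress response 4 were higher, led by SDF2L1 (1.58), CRELD2 (1.08) and MANF (0.46), and PDIA4 was lower (-0.74). The shares of serine and folate genes and of endoplasmic reticulum genes called lay near those of all genes, 20.4% higher and 18.8% lower, or below them. The mitochondrial share of UMIs moved with these sets, with a median of 15.7% ± 3.15 in GJA1+ IGFBP5- and 12.8% ± 2.89 in unmarked cells, and its part in these lists was not tested.

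Between the GJA1+ sets, which were divided by IGFBP5, 7 of 112 list genes were called (6.25%, against 3.05% of all genes). GJA1+ IGFBP5- cells also had more immune marker UMIs per 10000 (mean 0.0659 against 0.0201) and KRT14 (51.8 ± 34.2, SD, against 30.7 ± 15.8). Of them 60 of 380 had under 5000 UMIs, against 9 of 922 IGFBP5+ GJA1+ cells. The part of these differences in the calls was not tested. In IGFBP5+ GJA1+ against GJA1+ IGFBP5- cells FPGS, which retains folates in the cell by adding glutamate, was higher at 1.15, AHCY at 0.39 and the transporter SLC1A4 at 0.56, while FBP1 (-0.85), MDH1 (-0.37), PDIA6 (-0.45) and NARS1 (-0.42) were lower, of which FBP1 was not called by DESeq2 (adjusted p = 0.0561). FPGS was at 0.784, 0.547 and 0.642 in IGFBP5+ GJA1+ cells and at 0.425, 0.228 and 0.310 in GJA1+ IGFBP5- cells, with no overlap. From these same data the study had already picked FPGS and PCK2 as uniquely high in its IGFBP5+ channel-gap-like spinous cells. FPGS is therefore no independent support here, and the 7 calls include it. In IGFBP5+ GJA1- against unmarked cells 15 of 112 list genes were called (13.4%, against 7.85% of all genes), among them FPGS (0.61), MTHFD1 (0.42), NUPR1 (1.11), SLC6A9 (0.47), PCCA (0.50), LDHA (0.46) and HSPE1 (0.36) higher and NIBAN1 lower (-0.42). DESeq2 called 10 of the list genes, without HSPE1 (adjusted p = 0.0551), and gave no adjusted p for NUPR1.

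In IGFBP6+ against DLK2+ cells 10 of 18 phosphoenolpyruvate and propionate genes were higher (10.4% of all genes were), led by FBP1 (2.03), MDH1 (0.87) and LDHA (0.77), and FBP2 was lower (-0.73). Of 18 serine and folate genes 6 were higher, led by MTHFD1 (1.03), TYMS (1.02) and FPGS (0.56), and CBS was lower (-0.44). Of 23 other ATF4 targets 1 was higher, SLC1A5 (0.55), and 7 were lower, led by ATF3 (-1.24), NIBAN1 (-0.74) and PPP1R15A (-0.67), against 8.82% of all genes. DESeq2 called 4 of these targets lower in place of 7, and it did not call FBP2 (adjusted p = 0.06). The summed level of immediate-early genes averaged 49.8 in IGFBP6+ and 94.5 in DLK2+ cells, and its part in these targets was not tested. The chaperones HSPA5 (-0.50) and DNAJB9 (-0.47) were lower, and YARS1 (0.63), NARS1 (0.38) and EPRS1 (0.29) were higher.

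The 10 genes were then tested over groups of cells that the question did not use. In each cow, high and low cells were matched so that both held equal numbers from each of the 7 sets. Between the 10% of cells with the most cell cycle transcripts and the 50% with the fewest, 5 of the 9 genes tested were higher in the cycling cells, where 15.1% of all genes were higher and 16.1% lower (31.1% in all). PSAT1 was at 0.471, 0.379 and 1.13 in cycling-high and at 0.177, 0.188 and 0.505 in cycling-low cells (log2 fold change 1.00 ± 0.11, SE, edgeR adjusted p = 3.37e-06). PCK2 was at 0.477, 0.362 and 0.292 against 0.276, 0.234 and 0.139 (0.66 ± 0.11, edgeR adjusted p = 0.000371). PSPH was at 0.357, 0.313 and 0.694 against 0.151, 0.205 and 0.506 (0.50 ± 0.13, edgeR adjusted p = 0.0094). All 3 were higher in cycling-high cells in 3 of 3 cows. PHGDH (0.34, edgeR adjusted p = 0.0184) and MTHFD2 (0.92, adjusted p = 0.0261) were also called, whereas SHMT2 (0.16), ASNS (0.03), ATF4 (-0.21) and DDIT3 (-0.27) were not. DDIT3 was called lower in 3 of 8 alternatives.

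The call of PHGDH was lost without cow 1 (adjusted p = 0.0707) or cow 2 (0.106, at a log2 fold change of 0.22), that of PSPH without cow 1 (0.0686), and that of MTHFD2 without cow 2 or cow 3 and with DESeq2 (0.349). Over the 8 alternatives, adjusted p ranged from 0.000517 to 0.792 for PHGDH, from 4e-05 to 0.724 for PSPH and from 0.000188 to 0.391 for MTHFD2. Of 23 other ATF4 targets 7 were called, each of them lower in cycling-high cells, led by ATF3 (-1.30), DDIT4 (-0.94) and NIBAN1 (-0.83). TYMS (2.88), GGH (1.90) and MTHFD1L (1.74) led the 6 of 18 serine and folate genes that were higher, and 3 were lower, among them CBS (-0.46) and AHCY (-0.44). Of 15 endoplasmic reticulum stress genes 5 were higher, among them CRELD2 (1.23), SDF2L1 (1.12) and HYOU1 (0.91), and 1 was lower. These list counts stand against 15.1% of all genes higher and 16.1% lower. DESeq2 called 25 list genes in place of 38, without GGH (adjusted p = 0.148), CRELD2 (0.138) and DDIT4 (0.0511). Cycling-high cells were deeper, with medians of 13981, 15739 and 14630.5 UMIs against 9987, 12047.5 and 8802.5, and the part of depth was not tested.

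By mitochondrial share of UMIs, the upper against the lower tertile of cells, PCK2 was called and the other 9 genes were not. It was at 0.384, 0.251 and 0.235 in mitochondrial-high and at 0.127, 0.128 and 0.182 in mitochondrial-low cells (log2 fold change 0.86 ± 0.16, SE, edgeR adjusted p = 0.00812), with mitochondrial transcripts left out of the sums, and 4.0% of all genes were higher and 4.98% lower (8.99% in all). The call was lost without cow 2 (adjusted p = 0.112), within a range of 4.59e-11 to 0.619 over the alternatives, and the log2 fold change was 1.52 when cells were not matched on set. PSPH (0.25 ± 0.12, edgeR adjusted p = 0.219) and PSAT1 (0.24 ± 0.13, adjusted p = 0.267) did not pass, nor did DDIT3 (-0.42 ± 0.12, adjusted p = 0.0514). DDIT3 was called lower in 4 of 8 alternatives, which were no low-count filter, cow 1 left out, cells not matched on set and cells of lowest mitochondrial share left out (adjusted p from 0.00295 to 0.0492). PCCA (0.71), PCCB (0.63), ME2 (0.57), MTHFD1 (0.92), FPGS (0.85) and SLC6A9 (0.73) were higher, and ATF3 (-0.998), JDP2 (-0.78), NIBAN1 (-0.75) and CBS (-0.60) were lower. Median UMIs were 9304, 13581 and 9666.5 in high and 8248, 8674 and 8316 in low cells.

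By immediate-early transcripts, again upper against lower tertile, the genes split. DDIT3 was at 0.731, 1.09 and 0.315 in immediate-early-high and at 0.171, 0.282 and 0.117 in immediate-early-low cells (log2 fold change 1.80 ± 0.12, SE, edgeR adjusted p = 0.000444). ATF4 was at 3.17, 3.82 and 2.35 against 1.85, 2.15 and 1.76 (0.66 ± 0.10, edgeR adjusted p = 0.0101). PCK2 was lower, at 0.117, 0.116 and 0.161 against 0.242, 0.212 and 0.196 (-0.70 ± 0.18, edgeR adjusted p = 0.0411), and so was PSAT1, at 0.154, 0.180 and 0.592 against 0.286, 0.253 and 0.749 (-0.54 ± 0.13, edgeR adjusted p = 0.0383). PSPH missed the threshold at -0.46 ± 0.13 (edgeR adjusted p = 0.0567) but was called with no low-count filter and without cow 3 (0.0178 and 0.0318), and PHGDH (-0.06), SHMT2 (-0.04) and ASNS (0.04) were not called. Of all genes 7.7% were higher and 6.61% lower, 14.3% in all.

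PCK2 and PSAT1 were lower in 3 of 3 cows. Both calls were lost without cow 1 or without cow 2 (adjusted p from 0.0759 to 0.163), at log2 fold changes of -0.55 and -0.58 for PCK2 and of -0.39 and -0.55 for PSAT1, and over the alternatives their adjusted p ranged from 0.00474 to 0.502 and from 0.00738 to 0.887. DDIT3 and ATF4 were called in 7 of 8 alternatives. Of 24 other ATF4 targets 8 were higher in immediate-early-high cells, led by ATF3 (4.70), PPP1R15A (3.16) and CEBPB (1.31), and SLC6A9 was lower (-0.41). Whether these targets rose through ATF4 or along with the immediate-early genes that defined the split was not tested. DESeq2 did not call CEBPB (adjusted p = 0.0769) or SLC6A9 (0.0645). Of 16 endoplasmic reticulum stress genes 3 were higher, among them HSPA5 (1.90) and DNAJB9 (0.95), and 1 was lower. Of 19 phosphoenolpyruvate and propionate genes 0 were higher and 5 lower, among them MDH1 (-0.74), LDHA (-0.72) and ME2 (-0.68). Of 18 serine and folate genes 1 was higher and 4 were lower, among them TYMS (-0.95) and MTHFD1 (-0.92). These counts stand against 7.7% of all genes higher and 6.61% lower. Immediate-early-high cells had a lower mitochondrial share, with medians of 11.2%, 9.30% and 11.4% against 20.6%, 11.5% and 13.2%, so the 2 splits of the cells were not independent.

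**Figure D5:**
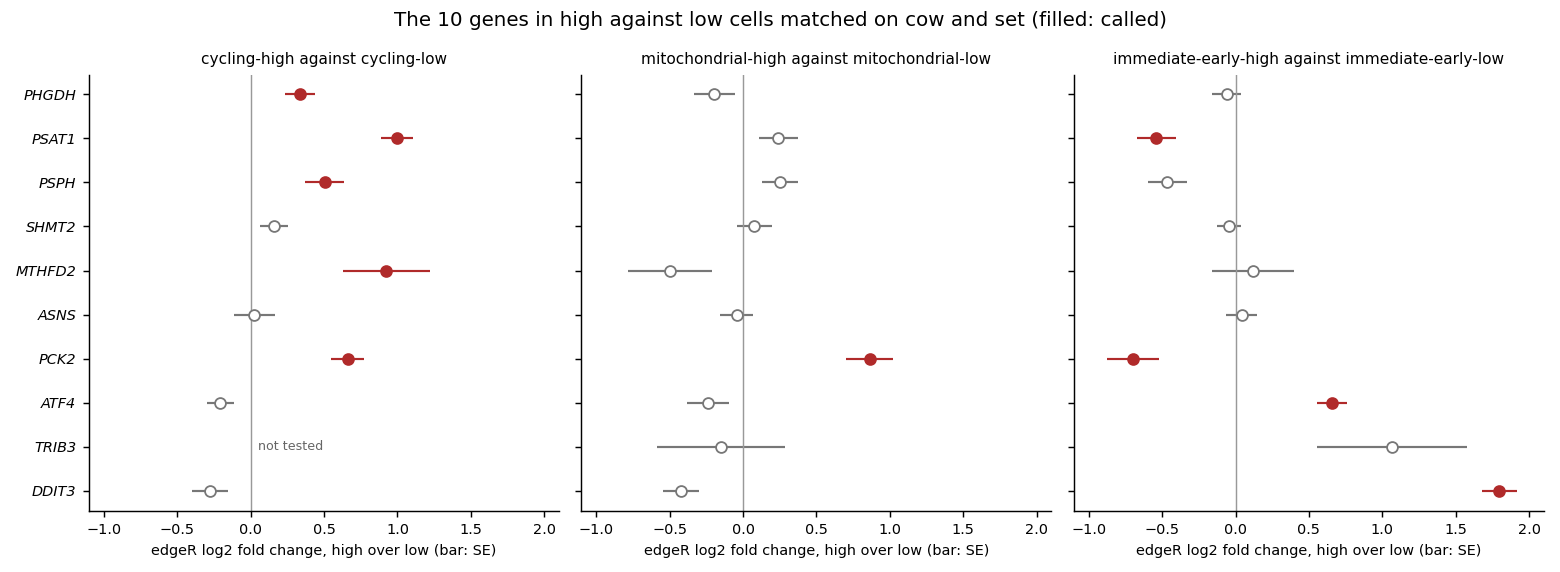
Log2 fold change from edgeR of the 10 genes in high against low cells by cell cycle, mitochondrial share and immediate-early transcripts, matched on cow and set, with bars for the standard error and filled points for called genes. PCK2 is at 0.66, 0.86 and -0.70 in the 3 panels and DDIT3 reaches 1.80 in the last.

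Finally, cells were split by 1 of the genes itself, after thinning each cell to 5000 UMIs and matching on cow and set. These 4 splits were added after the levels by set had been seen. Cells in which PCK2 was detected (274, 580 and 785 per cow) were compared with as many in which it was not, and 0 of 7 genes tested were called by edgeR, where 0.811% of all genes were higher and 0.508% lower (1.32% in all). PCK2 had 5094 UMIs over all 20728 cells, so a cell with none after thinning may still express it. The absence of calls here therefore cannot show that these genes do not move with PCK2. At an unadjusted p under 0.05, 1 of the 7 passed in edgeR and 0 in DESeq2, which gave an adjusted p for 1 of them only. DESeq2 also split the calls over all genes differently, with 2 higher and 11 lower in place of 67 and 42. PSPH was at 0.263, 0.231 and 0.632 in the PCK2-detected and at 0.219, 0.169 and 0.535 in the other cells (log2 fold change 0.25 ± 0.12, SE, edgeR adjusted p = 0.414), higher in 3 of 3 cows. The ATF4 targets ATF3 (-0.35) and NIBAN1 (-0.48) were lower in PCK2-detected cells, and TYMS was higher (0.46), though its sign turned with DESeq2 and without cow 3. The edgeR adjusted p of NIBAN1 was 0.047, and DESeq2 gave it no adjusted p.

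Of 7 genes tested in cells split by PHGDH, 1 was called, PSPH. Cells with 2 or more PHGDH UMIs had more PSPH than cells with none, at 0.236, 0.223 and 0.627 against 0.142, 0.156 and 0.507 (log2 fold change 0.33 ± 0.09, SE, edgeR adjusted p = 0.0147, with 1.41% of all genes higher and 0.425% lower, 1.83% in all). The call was lost without cow 2 or cow 3, without the cells of lowest mitochondrial share, without the cow block and with DESeq2, at a log2 fold change of 0.30 without cow 2 and 0.58 without cow 3, and adjusted p over the alternatives ranged from 0.0149 to 1. DESeq2 called 14 genes higher and 8 lower in place of 129 and 39. TYMS, which makes thymidylate for DNA synthesis, was also higher in PHGDH-high cells (0.63, edgeR adjusted p = 4.32e-07, DESeq2 adjusted p = 0.852), and the part of cycling cells in the difference of PSPH was not tested. PSAT1 was at 0.245, 0.239 and 0.718 against 0.198, 0.203 and 0.578 (0.27 ± 0.08, edgeR adjusted p = 0.0594, and called when cells were not matched on set), and PCK2 was at 0.198, 0.166 and 0.173 against 0.165, 0.172 and 0.170 (0.00 ± 0.12, adjusted p = 1).

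In cells split by ATF4, DDIT3 was called. Cells with 2 or more ATF4 UMIs had DDIT3 at 0.478, 0.857 and 0.211 against 0.354, 0.544 and 0.187 in cells with none (log2 fold change 0.43 ± 0.07, SE, edgeR adjusted p = 0.00021, with 1.35% of all genes higher and 0.496% lower, 1.84% in all), a call lost without cow 2, where the log2 fold change was 0.22, without the cow block and with DESeq2 (adjusted p = 0.067, in a range of 1.02e-08 to 1 over the alternatives). In DDIT3-detected cells ATF4 was higher by 0.23 ± 0.05 (edgeR adjusted p = 0.00493), below the fold change required, with 1.71% of all genes higher and 0.202% lower, 1.91% in all. PSPH was at -0.18 in the first and -0.30 in the second of these splits and PCK2 at -0.12 and 0.04, none of them called, though PSPH was called in the second when cells were not matched on set (edgeR adjusted p = 0.0308). ATF3 (0.59 and 0.67), PPP1R15A (0.53 and 0.51) and HSPA5 (0.41 and 0.63) were higher in both. ATF4, DDIT3, ATF3, PPP1R15A and HSPA5 were also higher in immediate-early-high cells. The splits by ATF4 and DDIT3 were not matched on immediate-early transcripts, and the part of these transcripts was not tested.

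The cows spread more than the set means did for PSPH (2.79-fold over cows and 1.48-fold over sets), DDIT3 (3.70 and 1.91), PSAT1 (3.37 and 2.96), PHGDH (2.35 and 2.13) and, by little, SHMT2 (1.58 and 1.54). They spread less for ASNS (1.26 and 1.93), ATF4 (1.49 and 1.61) and PCK2, whose set means spread 5.54-fold. Over all cells PHGDH was at 1.29, 1.24 and 2.90, PSAT1 at 0.202, 0.214 and 0.679 and PSPH at 0.201, 0.212 and 0.562, so cow 3 stood above the other cows for the whole serine pathway. DDIT3 was at 0.359, 0.664 and 0.180 and TRIB3 at 28, 88 and 7 UMIs, both lowest in cow 3, while ASNS was at 0.114, 0.131 and 0.144 and SHMT2 at 0.704, 0.626 and 0.992. With 1 library per cow, a difference between animals and one between libraries cannot be told apart.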

How the data were processed

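UMI counts per gene and cell were deposited by the authors for 3 rumen libraries, 1 per cow, with a second table of the same values as the natural log of scaled counts, which was used to check the counts. Per the paper's methods the authors aligned 10x 3' v3 reads to ARS-UCD1.2 with Ensembl annotation in Cell Ranger 3.1.0, filtered cells on genes, UMIs and mitochondrial share, sought doublets and kept epithelial cells. No doublet caller was run here. The 10 genes and the gene lists were chosen with earlier results of these data known.

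Cells were grouped by 4 markers (positive at 2 or more UMIs) and counts were summed per cow and set. Since sums of a cow come from the same animal, cow was a block in each fit. Sums were tested in edgeR 4.0.16 (R 4.3.3; TMM, low-count filter, quasi-likelihood test, Benjamini-Hochberg over all genes), called at adjusted p below 0.05 and a log2 fold change past 0.25. High and low cells were matched on cow and set (seed 30). For splits on a gene's own UMIs, cells were thinned to 5000 UMIs and 1518 shallower cells were left out. Named list genes were taken from the 3 called genes of largest log2 fold change per list, contrast and direction, and named like genes were the 5 of highest r. Some list genes among these 3 are not reported here. Alternatives were DESeq2 1.42.0, other marker thresholds, sets made from cells thinned to 5000 UMIs (positive at 1 UMI, levels from all their UMIs), no low-count filter, no block, and leaving out each cow. The fits were also run on simulated counts, with an outcome that is not reported here. With 1 library per cow and cow as a block, p-values measure how differences within a cow vary over 3 cows. The 4 contrasts between sets came from 1 joint fit of all 7 sets, which share 1 estimate of the spread.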

Additional observations from a re-analysis of the deposited data

How the results depend on the processing

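The direction of most results held. Of 468 fitted log2 fold changes between sets for 9 genes under alternatives, 412 stayed within the spread, 48 moved and 8 changed sign beyond it. Of the 412, 12 changed sign within the spread. In tests in cell groups 430 kept their side of the threshold, 29 lost and 11 gained a call. Each of the 12 calls of these genes in cell groups was lost without the block (lowest adjusted p = 0.382). Fits without the cow block ignore that sums of 1 cow come from the same animal. Counts of calls were as follows.

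IGFBP5+ GJA1+ against GJA1+ IGFBP5- had 306 calls, 465 with markers positive at 1 UMI, 491 with no low-count filter, 17 without the block and 97 to 201 with a cow left out. IGFBP5+ GJA1- against unmarked had 787, 299 with sets from thinned cells, 359 with 1-UMI cells left out, 412 with DESeq2, 181 at 1 UMI, 1 without the block, 160 to 803 with a cow left out and 1278 with IGFBP5 positive at 5 UMIs, a setting chosen after seeing the data. IGFBP6+ against DLK2+ had 1930, 69 without the block and 978 to 1387 with a cow left out. GJA1+ IGFBP5- against unmarked had 3931, 2245 at 1 UMI, 1526 without the block and 2884 to 3310 with a cow left out.

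Cycling had 3144, 1678 with DESeq2, 433 without the block and 1865 to 3180 with a cow left out. The mitochondrial split had 1004, 2336 when cells were not matched on set, 550 with DESeq2, 1731 with no filter, 1 without the block, 192 without cow 2 and 2101 without cow 1. The immediate-early split had 1608, 1 without the block and 574 to 1171 with a cow left out. The PCK2 split had 109, 647 not matched, 170 without low-mitochondrial cells, 13 with DESeq2 and 49 to 97 with a cow left out. The DDIT3 split had 170, 398 not matched, 58 with DESeq2 and 99 to 235. The ATF4 split had 186, 369 not matched, 82 with DESeq2 and 107 to 256. The PHGDH split had 168, 294 not matched, 22 with DESeq2 and 40 to 192. Without the block edgeR made 0 calls in these 4 splits, with 47, 34, 20 and 31 genes at an unadjusted p under 0.05.

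Signs changed beyond the spread for MTHFD2 with 1-UMI cells left out (0.90 in IGFBP5+ GJA1+ against GJA1+ IGFBP5- and -0.12 in IGFBP6+ against DLK2+), for PHGDH in IGFBP5+ GJA1- against unmarked (-0.0627 with sets from thinned cells, -0.0837 with IGFBP5 at 5 UMIs) and for PSAT1 there (-0.06635 with the same sets). In GJA1+ IGFBP5- against unmarked PSPH changed to 0.0628 with IGFBP5 at 5 UMIs, and ASNS to 0.0818 with 1-UMI cells left out and to 0.0107 without cow 2, against -0.144 without cow 3. Within the spread they changed for ATF4 (4 alternatives, up to 0.0444) and DDIT3 (2, up to 0.187) in IGFBP5+ GJA1+ against GJA1+ IGFBP5-, for ASNS (2, up to 0.0256) in IGFBP5+ GJA1- against unmarked, for MTHFD2 (2, up to 0.118) in GJA1+ IGFBP5- against unmarked, and for MTHFD2 in 1 more alternative of each contrast named above for it. The r with PSPH turned to 0.23 for MTHFD2 at 1 UMI and 0.11 for DDIT3 at 3 UMIs. The causes were not tested.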
